A study of Mus musculus with 8 samples.

Results

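The livers of FXRKO males and of males that also lacked hepatic *Bcl6* were compared for 42 genes of amino acid breakdown, which were found among the 24940 genes of the count table by their symbols. The genes were taken as enzymes that degrade tryptophan, lysine, histidine, proline, alanine and aspartate, the branched-chain amino acids, tyrosine, serine and threonine, glycine, and cysteine. Of the 42 genes, 41 passed the expression filter and were tested. *Tdh*, the threonine dehydrogenase gene, had a single count in 1 of the 8 livers and was not tested.

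Liver RNA was sequenced from 4 FXRKO males and from 4 BCL6LKOFXRKO males, which are called DKO here, all of the C57BL/6 strain. All 8 males carried floxed *Bcl6* alleles (Bcl6 fl/fl) and lacked FXR, the bile acid receptor encoded by *Nr1h4*, in the whole body. The DKO males additionally carried Cre under the albumin promoter, used to delete *Bcl6*, a transcriptional repressor, in hepatocytes. Its deletion in single cell types was not measured here. No liver with intact FXR was analysed here, and the age of the males is not given in the sources used here. The study's methods state that animals were fed ad libitum or fasted for a few hours, without saying which held for each liver. The question of the comparison was how liver RNA differs when hepatic BCL6 is lost on top of FXR.

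The liver breaks down most amino acids that exceed the needs of protein synthesis. Aminotransferases move the amino group to a keto acid, dedicated oxygenases and dehydrogenases open the carbon skeleton, and the products enter the citric acid cycle, gluconeogenesis, ketone formation or one-carbon metabolism. Several of the first enzymes, *Tat* and *Tdo2* among them, are textbook targets of glucocorticoids, and others such as *Sds* are known to respond to feeding and fasting.

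*Bcl6* was lower in all 4 DKO livers, at 11.9, 4.61, 5.55 and 7.72 CPM (counts relative to a TMM-scaled library total), than in the FXRKO livers, at 56.3, 65.2, 21.2 and 55.6. FXRKO liver 3 had the lowest *Bcl6* of its genotype and did not overlap with the DKO livers. Totals per liver were between 7586241 and 11839503 counts, and the first principal component of all tested genes, with 71.7% of the variance, separated the genotypes. Of all counts, 29.8% to 31.2% in FXRKO livers and 40.7% to 44.1% in DKO livers fell on the 50 genes with the most, and *Alb* alone held 4.04% to 5.16% and 11.9% to 13.2%. The 42 genes together took between 1.52% and 1.86% of the unscaled counts in FXRKO livers and between 1.23% and 1.38% in DKO livers. In CPM their sums overlapped, at between 14435 and 17546 in FXRKO livers and between 13629 and 14875 in DKO livers.

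Of the 41 tested genes, 21 were lower and 1 was higher in DKO livers at an adjusted p under 0.05 (edgeR's quasi-likelihood test, Benjamini-Hochberg adjustment over all tested genes), and 19 were not called. Among all 12340 tested genes, 13.5% were called lower and 16.2% higher. The median log2 fold change of the 41 genes was -0.37, beside 0.01 for all tested genes. These enzymes are highly expressed, and 40 of the 41 had a mean of at least 50 CPM over the livers. Among all 2508 tested genes at or above that level, a limit set after the values were seen, 24.3% were called lower and 15.6% higher, and the 40 members at that level held all 21 lower genes and the higher one. When livers were set side by side, 22 members had all 4 DKO livers below all 4 FXRKO livers and 2 had them above, where 15.2% and 16.1% of all tested genes did so. In bulk liver, fewer cells of a type and less RNA per cell cannot be told apart.

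**Figure D1:**
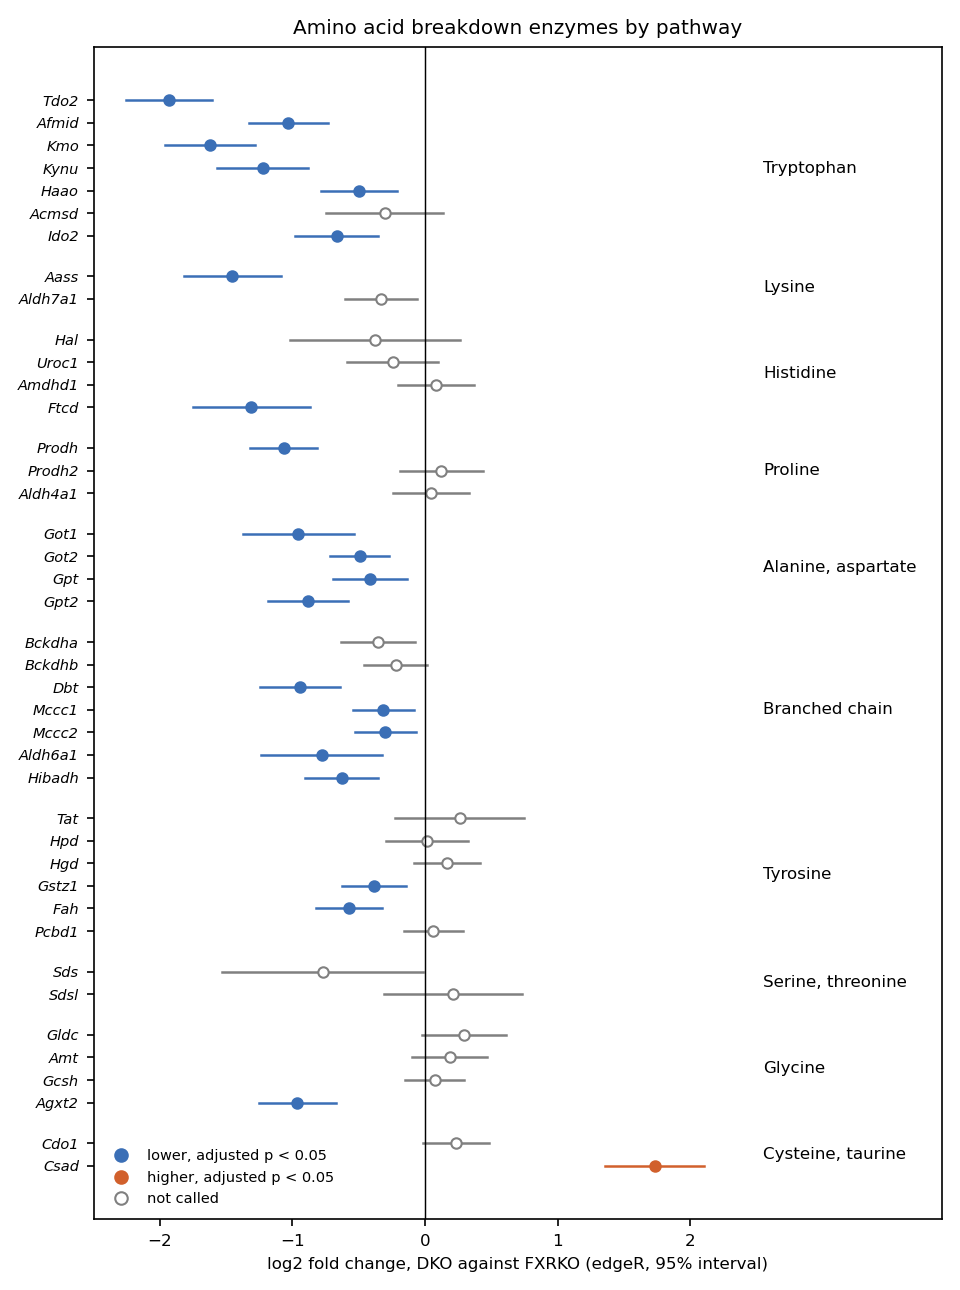
Log2 fold change of each tested member in DKO against FXRKO livers (4 livers each) on the x axis, with its 95% interval from edgeR as a line, and one gene per row, grouped by pathway. Filled blue points are the 21 genes called lower, the filled orange point is *Csad*, the single gene called higher, and open grey points are the 19 genes that were not called.

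**Figure D2:**
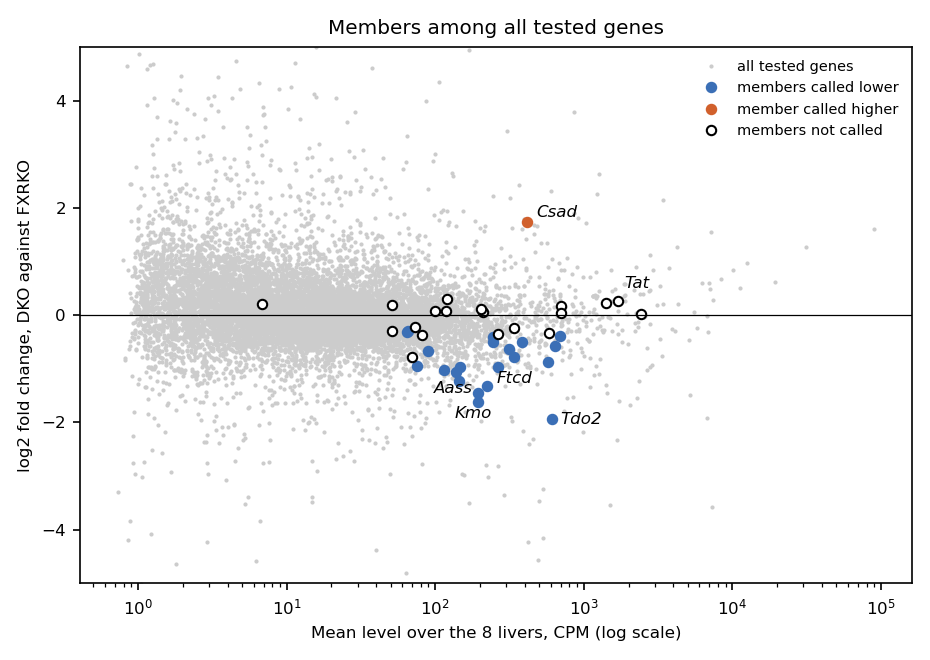
Log2 fold change in DKO against FXRKO livers on the y axis over the mean level in the 8 livers in CPM on a logarithmic x axis. Grey dots are all tested genes (92 beyond an absolute log2 fold change of 5 are not drawn), blue points the members called lower, the orange point *Csad* and open points the members not called. All but 1 of the members lie at 50 CPM or more, where 24.3% of tested genes were called lower.

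Markers of other liver cells and of hepatocyte zones were counted in the same livers, where 16.2% of all tested genes were called higher and 13.5% lower. Of 9 stellate cell and fibroblast markers, 6 were called higher and none lower, and their summed level was between 227 and 318 CPM in FXRKO livers and between 458 and 570 CPM in DKO livers. Of 8 macrophage markers, 3 were called higher (sums of 327 to 431 and 505 to 755 CPM), and of the 5 tested cholangiocyte markers, 3 were (sums over all 8 markers of 42.02 to 67.2 and 92.4 to 195 CPM). One of 7 endothelial markers was called higher (147 to 205 and 187 to 245 CPM), and the 5 T cell markers found were too low to test (1.37 to 2.04 and 3.93 to 5.54 CPM). Of 9 hepatocyte markers, *Alb* and *Apoa2* were called higher and *Apob* and *Ttr* lower, and their summed level, most of it *Alb*, was between 68933 and 79511 CPM in FXRKO livers and between 159918 and 180014 CPM in DKO livers. Without *Alb* the other 8 summed to between 30695 and 34092 CPM and between 26575 and 33282 CPM. Of 9 periportal markers 3 were called lower and 1, again *Alb*, higher (42432 to 54818 and 130665 to 150628 CPM in sum). Without *Alb* the other 8 periportal markers were lower in sum in every DKO liver, at 4194 to 6684 CPM in FXRKO and 2872 to 3675 CPM in DKO livers. Most of this difference came from *Pck1* (mean of 2613 CPM in FXRKO and 857 CPM in DKO livers) and *Cyp2f2* (1255 and 437 CPM). *Hsd17b13* was also called lower, whereas *Ass1*, *Asl*, *Arg1*, *Gls2* and *Cdh1* were not called. Of 9 pericentral markers 3 were called higher and 1, *Cyp2e1*, lower (13210 to 17775 and 5238 to 8568 CPM in sum). *Cyp2e1* held most of the FXRKO sum, at 9137 to 13127 CPM and 2114 to 3515 CPM, and the other 8 overlapped, at 4074 to 4648 CPM in FXRKO and 3124 to 5120 CPM in DKO livers. Kidney markers summed to less than 1 CPM in every liver, with 3 of 5 at 0 in all livers. Pancreas markers summed to between 13.5 and 28.0 CPM in FXRKO and between 6.92 and 9.81 CPM in DKO livers, almost all from *Cela1*, with 2 of 5 at 0 in all livers. The part of any of these in the member values was not tested.

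Promoter sequences of the members are shown for those with the largest fold changes in each direction, because these genes were called together. They are the 250 bases before the transcription start from RefSeq, build GRCm38.p6, written 5′ to 3′ on the gene's strand in lower case, with matches to TATAAA or CCAAT (or its reverse complement ATTGG) in capitals. *Aass*, minus strand, chr6:23132987-23133236, holds a pair of CCAAT boxes on the opposite strand, 101 and 61 bases before the start. *Ftcd*, plus strand, chr10:76575398-76575647, holds a TATA box 29 bases before the start. *Csad*, the gene that rose, minus strand, chr15:102189044-102189293, holds neither.
Aass: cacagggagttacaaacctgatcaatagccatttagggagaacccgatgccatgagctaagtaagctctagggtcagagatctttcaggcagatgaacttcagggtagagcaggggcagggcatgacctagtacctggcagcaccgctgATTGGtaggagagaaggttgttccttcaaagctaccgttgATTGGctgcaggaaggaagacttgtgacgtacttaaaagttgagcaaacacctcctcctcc
Ftcd: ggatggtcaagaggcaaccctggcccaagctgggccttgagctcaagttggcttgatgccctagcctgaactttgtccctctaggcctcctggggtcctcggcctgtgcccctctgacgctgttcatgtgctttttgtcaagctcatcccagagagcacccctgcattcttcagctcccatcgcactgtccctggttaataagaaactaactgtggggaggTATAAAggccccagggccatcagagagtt
Csad: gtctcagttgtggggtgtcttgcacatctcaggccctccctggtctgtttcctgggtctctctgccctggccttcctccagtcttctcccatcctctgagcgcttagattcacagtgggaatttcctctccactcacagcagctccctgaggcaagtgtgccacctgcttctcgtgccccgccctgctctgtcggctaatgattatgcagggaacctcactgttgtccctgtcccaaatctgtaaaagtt

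The 250 bases before the starts of *Tdo2* and *Kmo* overlap annotated exons over 250 and 197 bases and are not printed here, and the printed stretch of *Csad* overlaps one over 15 bases. Promoter windows of 300 bases, reaching 50 bases past the start, were held for 33 of the 42 members and were searched on both strands. TATAAA occurred in 7 of the 33 and in 13.6% of all 32851 windows, and CCAAT in 18 of the 33 and in 37.4% of all windows. These letters were searched after the sequences had been seen. TTCNNNGAA, the palindrome bound by STAT proteins and also recognised by BCL6, occurred in 1 member window, that of *Prodh*, 57 bases before the start, and in 8.3% of all windows. The cAMP response element TGACGTCA (1.79% of all windows), the FXR inverted repeat and the HNF1 palindrome (0.00913% each) had no match in the 33 windows. A match describes letters in a window and not a bound site.

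The kynurenine pathway, which degrades tryptophan, held the members with the largest and second largest decreases, *Tdo2* and *Kmo*, and 6 of its 7 genes fell. Each pathway count from here on stands beside 13.5% lower and 16.2% higher over all tested genes. *Tdo2* (mm10 chromosome 3 from 81958414 to 81975728) encodes tryptophan dioxygenase, the first and rate-limiting enzyme of the pathway in liver. It was at 865, 975, 884 and 1131 CPM in FXRKO livers 1 to 4 and at 199, 299.99, 269.9 and 241 CPM in DKO livers 5 to 8. The highest DKO liver lay far below the lowest FXRKO liver, and the fitted level was 73.8% lower (log2 fold change -1.93, standard error 0.15, adjusted p = 1.08e-06). Per transcript length, *Tdo2* ranked 4th among the 41 tested members in FXRKO livers, at 595 ± 75.0 RPKM (SD, n = 4), and 12th in DKO livers, at 156 ± 26.5 RPKM (SD, n = 4).

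*Kmo* (chromosome 1 from 175632193 to 175660853), which hydroxylates kynurenine, was at 278, 312, 289.5 and 283 CPM in FXRKO livers. In DKO livers it was at 84.4, 131, 76.5 and 86.1 CPM. The FXRKO livers were close to each other while DKO liver 6 was higher than the other DKO livers, and the groups did not overlap (log2 fold change -1.62, standard error 0.16, adjusted p = 8.66e-06). *Kynu* (chromosome 2 from 43555325 to 43683048), which cleaves hydroxykynurenine to hydroxyanthranilate, was at 188, 224, 190.2 and 207 CPM in FXRKO and at 98.1, 106, 82.4 and 59.4 CPM in DKO livers. DKO liver 8 had the lowest *Kynu*, and no DKO liver reached the FXRKO range (log2 fold change -1.23, standard error 0.16, adjusted p = 0.000104). *Afmid* (chromosome 11 from 117825919 to 117839908), the formamidase that releases kynurenine from the product of *Tdo2*, was at 124, 159, 175 and 159 CPM in FXRKO and at 68.2, 91.0, 77.3 and 65.3 CPM in DKO livers. FXRKO liver 1 had the lowest value of its genotype and still lay above every DKO liver (log2 fold change -1.03, standard error 0.14, adjusted p = 0.000128).

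The remaining genes of the pathway moved less. *Ido2*, which catalyses the same reaction as *Tdo2*, fell by 0.67 on the log2 scale (standard error 0.14, adjusted p = 0.00399), from between 101 and 118 CPM in FXRKO livers to between 49.1 and 79.2 CPM in DKO livers. *Haao*, the dioxygenase that leads to the NAD precursor quinolinate, fell by 0.50 (standard error 0.13, adjusted p = 0.0131), and DKO liver 8, at 398 CPM, came nearest to the FXRKO livers, whose lowest was at 424 CPM. *Acmsd*, the decarboxylase that diverts carbon away from NAD synthesis, had a log2 fold change of -0.30 with a 95% interval of -0.74 to 0.14 and an adjusted p of 0.287, and its groups overlapped. Summed over the 7 genes, the pathway was between 2068 and 2351 CPM in FXRKO livers and between 867 and 1089 CPM in DKO livers. Without the tryptophan genes, 15 of the other 34 tested members were lower and 1 higher, and their median was -0.32 on the log2 scale. Over all tested genes 13.5% were lower and 16.2% higher, and over those at 50 CPM or more, 24.3% and 15.6%.

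**Figure D3:**
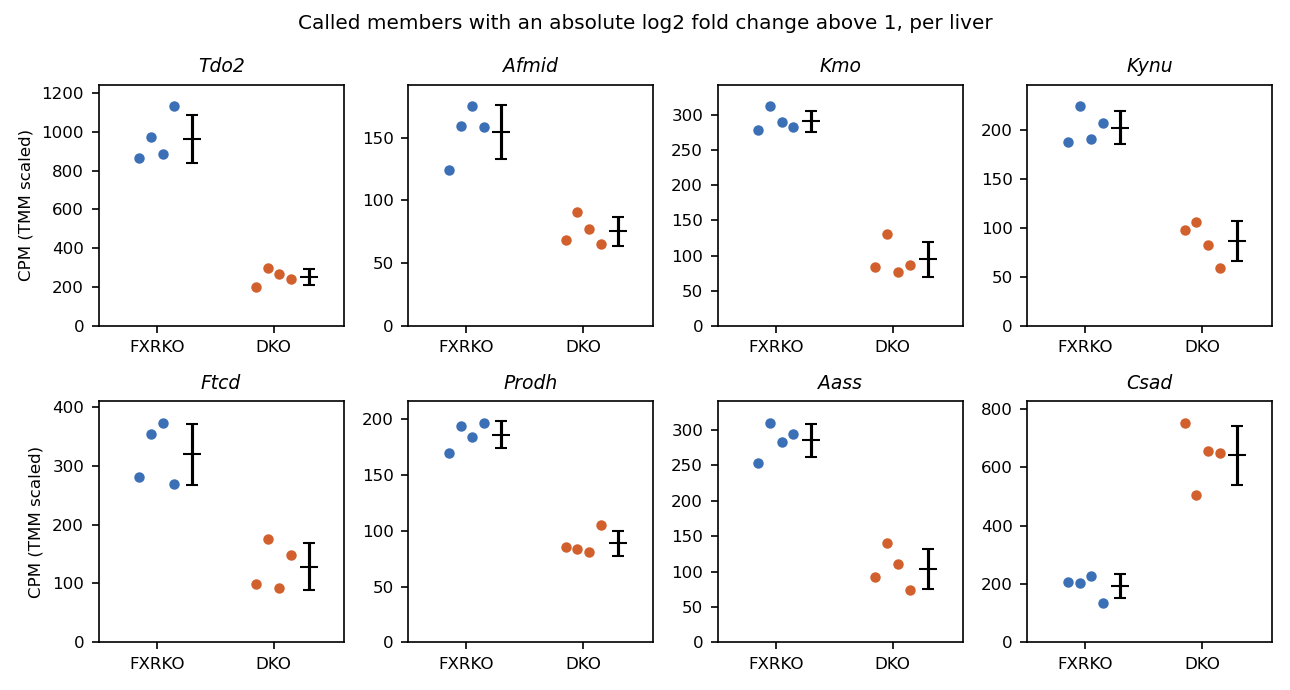
CPM (TMM scaled, y axes from 0) of the 8 members called with an absolute log2 fold change above 1, with a point for each of the 4 FXRKO (blue) and 4 DKO (orange) livers and the mean ± SD beside them in black. In 7 panels every DKO liver lies below every FXRKO liver, and in that of *Csad* every DKO liver lies above.

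In lysine breakdown the first enzyme fell. *Aass* (chromosome 6 from 23072173 to 23132986) encodes the aminoadipic semialdehyde synthase that channels lysine through saccharopine in mitochondria. It was at 254, 309.9, 283 and 294 CPM in FXRKO livers and at 91.8, 140.0, 111 and 74.1 CPM in DKO livers. The groups lay far apart, with DKO liver 6 the highest of its genotype and DKO liver 8 the lowest (log2 fold change -1.45, standard error 0.17, adjusted p = 4.45e-05). *Aldh7a1*, which oxidises the aminoadipic semialdehyde that *Aass* makes, was between 616 and 694 CPM in FXRKO and between 414 and 585 CPM in DKO livers. All DKO livers were below all FXRKO livers for *Aldh7a1*, but it was not called, with a log2 fold change of -0.33 (95% interval -0.60 to -0.06, adjusted p = 0.0635). Without DKO liver 8 it was called lower (adjusted p = 0.0251).

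In histidine breakdown only the last of the 4 steps was called. *Hal*, histidase, which takes the amino group from histidine, was at 64.4, 115, 108 and 79.1 CPM in FXRKO and 54.8, 111, 45.2 and 71.8 CPM in DKO livers. Its livers spread widely in both genotypes, with DKO livers 6 and 8 within the FXRKO range, and its log2 fold change was -0.37 (95% interval -1.01 to 0.27, adjusted p = 0.36). *Uroc1*, urocanase, and *Amdhd1*, imidazolonepropionase, had log2 fold changes of -0.24 (adjusted p = 0.273) and 0.08 (adjusted p = 0.676), the latter negative under total-count scaling. Without DKO liver 6, *Hal* and *Uroc1* were called lower, at -0.69 (adjusted p = 0.0317) and -0.46 (adjusted p = 0.011). *Ftcd* (chromosome 10 from 76575648 to 76590338), whose promoter is printed above, encodes the formiminotransferase cyclodeaminase that passes the carbon of formiminoglutamate to folate. It was at 280.3, 354, 372 and 269 CPM in FXRKO livers and at 98.5, 175, 92.0 and 149 CPM in DKO livers. The highest DKO liver, number 6, lay below the lowest FXRKO liver (log2 fold change -1.31, standard error 0.20, adjusted p = 0.000474). DKO liver 6 had the highest value of its genotype for all 4 histidine genes, and the difference between *Ftcd* and the other 3 was not tested.

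In proline breakdown 1 of the 3 genes fell. *Prodh* (chromosome 16 from 18071726 to 18089190), the mitochondrial proline dehydrogenase, was at 170.0, 194, 184 and 197 CPM in FXRKO livers and at 85.2, 84.2, 80.7 and 106 CPM in DKO livers. Replicates were close in both genotypes apart from DKO liver 8, which was the highest of its group and still well below the FXRKO livers (log2 fold change -1.07, standard error 0.12, adjusted p = 2.14e-05). *Prodh2*, a paralog that acts on hydroxyproline, was between 184 and 209 CPM in FXRKO and between 181 and 282 CPM in DKO livers (log2 fold change 0.12, adjusted p = 0.557, negative without DKO liver 8 and under total-count scaling). The ratio of *Prodh2* to *Prodh* per transcript length was between 1.19 and 1.43 in FXRKO livers and between 2.71 and 3.36 in DKO livers, with no overlap, and this ratio was not tested. *Aldh4a1*, the dehydrogenase of the next step for both, had a log2 fold change of 0.04 (95% interval -0.24 to 0.33, adjusted p = 0.835), with a sign that turned in 4 other fits, that without DKO liver 8 among them.

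All 4 aminotransferases of alanine and aspartate were lower. *Gpt*, the cytosolic alanine aminotransferase, was at 259, 268, 311 and 276 CPM in FXRKO and 201, 179, 197 and 258 CPM in DKO livers. DKO liver 8 and FXRKO liver 1 came within 1 CPM of each other, and the decrease was the smallest of the 4 (log2 fold change -0.41, standard error 0.13, adjusted p = 0.0289). Leaving out any 1 of livers 2 to 7 ended the call of *Gpt* (adjusted p from 0.0527 to 0.0861). *Gpt2*, its mitochondrial counterpart, fell by 0.88 (standard error 0.14, adjusted p = 0.000477). Of the aspartate aminotransferases, which also run the malate-aspartate shuttle, cytosolic *Got1* fell by 0.96 (standard error 0.19, adjusted p = 0.0027) and mitochondrial *Got2* by 0.49 (standard error 0.10, adjusted p = 0.00315). The per-length ratios of *Gpt2* to *Gpt* (1.13 to 1.51 in FXRKO and 0.752 to 1.16 in DKO livers) and of *Got1* to *Got2* (0.913 to 1.88 and 0.814 to 1.21) overlapped between the genotypes.

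Of the 7 branched-chain genes, 5 were lower. *Bckdha* and *Bckdhb* encode the decarboxylase subunits and *Dbt* the core acyltransferase of the branched-chain ketoacid dehydrogenase, the committed step for leucine, isoleucine and valine. *Bckdha* was at 286, 308, 317 and 268 CPM in FXRKO livers and at 211, 202, 223 and 286 CPM in DKO livers. DKO livers 5, 6 and 7 lay below the FXRKO livers while DKO liver 8 lay among them, and *Bckdha* was not called (log2 fold change -0.36, 95% interval -0.64 to -0.08, adjusted p = 0.0534). Without DKO liver 8, *Bckdha* was called lower, at -0.48 (adjusted p = 0.004). *Bckdhb* was not called either, at -0.22 (adjusted p = 0.143), whereas *Dbt* fell by 0.94 (standard error 0.14, adjusted p = 0.000301), from between 75.8 and 107 to between 41.9 and 57.6 CPM. Whether *Dbt* differed from the other subunits in its response was not tested.

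Further down, the genes of valine and leucine breakdown were called. *Aldh6a1* and *Hibadh*, dehydrogenases of the valine branch, fell by 0.78 (standard error 0.21, adjusted p = 0.0155) and by 0.63 (standard error 0.13, adjusted p = 0.00259). *Aldh6a1* had the widest range of the branched-chain genes among DKO livers, from 140 CPM in DKO liver 8 to 311 in DKO liver 7, with all FXRKO livers at 335 CPM or more. *Mccc1* and *Mccc2*, the subunits of methylcrotonyl-CoA carboxylase in the leucine branch, fell by 0.31 and 0.30 (adjusted p = 0.0416 and 0.0487). Both lie close to the threshold, and leaving out any 1 of livers 2 to 7 ended the calls, with adjusted p up to 0.116 for *Mccc1* and 0.137 for *Mccc2*.

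Tyrosine breakdown was mostly not called, with 2 of 6 genes lower. *Tat*, tyrosine aminotransferase, the first step, was at 844, 1469.6, 1743 and 2114 CPM in FXRKO livers and at 2049.8, 1664, 1954 and 1726 CPM in DKO livers. The DKO livers were close together and lay within the upper part of the FXRKO range, in which the highest liver had 2.503 times the level of the lowest (log2 fold change 0.26, 95% interval -0.22 to 0.74, adjusted p = 0.406). *Hpd*, the next enzyme and per length the most abundant of the 41 at 1731 ± 124 RPKM (SD, n = 4) in FXRKO and 1749 ± 324 RPKM (SD, n = 4) in DKO livers, had a log2 fold change of 0.01 (95% interval -0.29 to 0.32). Its sign turned in 5 of the other fits, total-count scaling and the fit without DKO liver 8 among them. *Hgd*, homogentisate dioxygenase, and *Pcbd1*, which recycles the cofactor of the phenylalanine hydroxylase reaction, had log2 fold changes of 0.17 and 0.06 and were not called, the latter reversing under total-count scaling. The last enzymes of the chain were lower, with *Gstz1*, maleylacetoacetate isomerase, at -0.39 (standard error 0.11, adjusted p = 0.0199, not called without liver 3, 5 or 7) and *Fah*, fumarylacetoacetase, at -0.57 (standard error 0.12, adjusted p = 0.00251).

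Neither serine dehydratase gene was called. *Sds*, which converts serine to pyruvate, was at 48.6, 99.1, 91.9 and 112 CPM in FXRKO and 31.1, 81.2, 52.0 and 42.2 CPM in DKO livers. FXRKO liver 1 lay among the DKO livers and DKO liver 6 near the other FXRKO livers, and the log2 fold change was -0.77 (95% interval -1.53 to -0.02, adjusted p = 0.116). Without FXRKO liver 1 or without DKO liver 6, *Sds* was called lower, at -0.98 (adjusted p = 0.0233) and -1.08 (adjusted p = 0.0174). *Sdsl*, its paralog, was the lowest tested member at between 4.83 and 8.37 CPM in FXRKO and between 4.97 and 9.53 CPM in DKO livers (log2 fold change 0.21, adjusted p = 0.549).

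The members with the widest range among FXRKO livers were *Tat*, *Sds* and *Got1*, with a highest liver at 2.503, 2.31 and 2.09 times the lowest. For all 3, FXRKO liver 1 was the lowest and FXRKO liver 4 the highest. This order was not particular to them, and *Tdo2*, *Hpd*, *Hgd*, *Gpt2* and *Prodh* were among the other members that had it. *Pck1*, the gluconeogenic phosphoenolpyruvate carboxykinase, which is known to follow feeding and fasting, had the same lowest and highest liver, at 1420.3, 2968, 2704 and 3362 CPM in FXRKO livers 1 to 4, and was at 735, 603, 1281 and 809.7 CPM in DKO livers. Among DKO livers the order was not shared, with liver 6 the lowest for *Pck1* and *Tat* but the highest for *Sds*, and liver 8 the lowest for *Got1*. *Pck1* itself was lower in DKO livers (log2 fold change -1.61, adjusted p = 0.00215), and *Tat*, *Sds* and *Got1* were set beside it after their values were seen. Whether any of these males was briefly fasted is not given in the sources used here, and the part of feeding in these values was not tested. Over the 41 members, the median coefficient of variation was 10.3% among FXRKO and 15.3% among DKO livers.

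**Figure D4:**
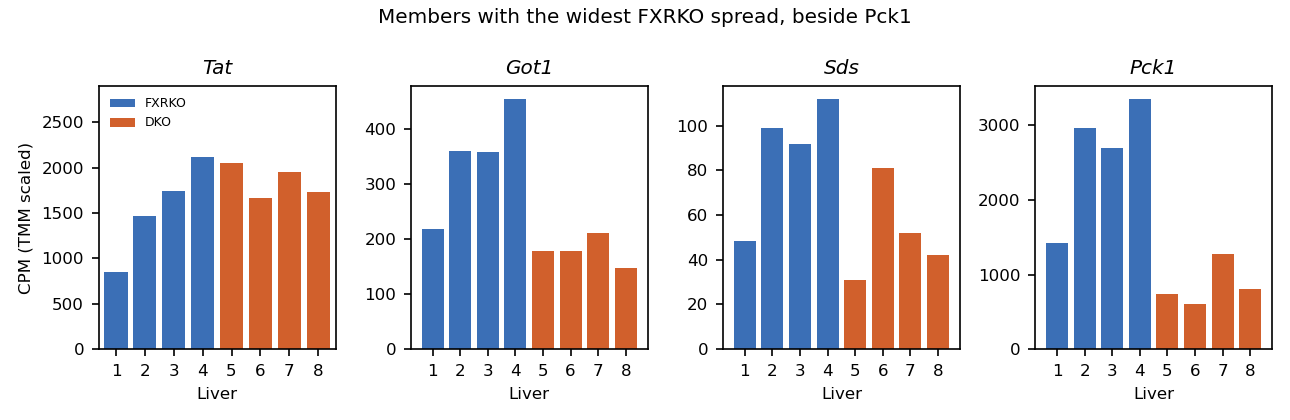
CPM (TMM scaled, y axes from 0) of *Tat*, *Got1*, *Sds* and *Pck1* in each of the 8 livers, with a bar per liver, blue for FXRKO livers 1 to 4 and orange for DKO livers 5 to 8. In all 4 panels FXRKO liver 1 is the lowest and liver 4 the highest of the FXRKO livers.

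In glycine breakdown the cleavage system was not called. *Gldc*, its decarboxylase and first component, was at 99.9, 127, 113 and 88.1 CPM in FXRKO livers and at 141, 158, 111 and 116 CPM in DKO livers. The genotypes overlapped, with the 2 highest livers both DKO (log2 fold change 0.29, 95% interval -0.02 to 0.61, adjusted p = 0.145). *Amt*, the aminomethyltransferase, and *Gcsh*, the lipoyl carrier, had log2 fold changes of 0.19 and 0.07 (adjusted p = 0.303 and 0.632), and *Gcsh* turned negative under total-count scaling. *Agxt2*, a mitochondrial aminotransferase that uses alanine and glyoxylate, fell by 0.96 (standard error 0.13, adjusted p = 0.000178), from between 176 and 208 CPM to between 74.4 and 115 CPM.

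Cysteine breakdown to taurine held the single member that rose. *Csad* (chromosome 15 from 102176998 to 102189043) encodes cysteine sulfinate decarboxylase, which forms hypotaurine, and taurine is the amino acid that mouse liver couples to bile acids. It was at 207, 202, 227 and 134 CPM in FXRKO livers and at 751, 504, 655 and 648 CPM in DKO livers. The lowest DKO liver was above the highest FXRKO liver by more than the range of either group, and the fitted level was 3.32-fold that of FXRKO livers (log2 fold change 1.73, standard error 0.17, adjusted p = 1.06e-05). By level per length, *Csad* moved from rank 24 of 41 in FXRKO livers, at 85.7 ± 18.1 RPKM (SD, n = 4), to rank 7 in DKO livers, at 285 ± 45.2 RPKM (SD, n = 4).

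*Cdo1*, cysteine dioxygenase, makes the substrate of *Csad*. It was at 1239, 1235, 1308 and 1369.8 CPM in FXRKO and 1683, 1512, 1383 and 1484 CPM in DKO livers. All DKO livers were above all FXRKO livers, but by little, and *Cdo1* was not called by edgeR (log2 fold change 0.24, 95% interval -0.01 to 0.48, adjusted p = 0.142). The per-length ratio of *Csad* to *Cdo1* was between 0.0758 and 0.135 in FXRKO livers and between 0.259 and 0.368 in DKO livers, and was not tested.

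By the compartment of the enzymes, assigned by hand, 11 of 18 mitochondrial members were lower and none higher (median log2 fold change -0.42), and 10 of 22 tested cytosolic members were lower and 1 higher (median -0.38). *Aldh7a1*, found in both, was left out of these counts. Over all tested genes, 13.5% were called lower and 16.2% higher.

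A second list held 71 other genes of the same pathways and amino acid transporters, of which 70 were found and 65 tested. In DKO livers 32 of these (49.2%) were lower and 5 (7.69%) higher, and the median over the 65 was -0.42 on the log2 scale. Over all tested genes, 13.5% were called lower and 16.2% higher, and over those at 50 CPM or more, 24.3% and 15.6%. Of 18 tested branched-chain genes on this list 10 were lower and none higher. Of 9 transporters 3 were lower and 3 higher. Of 8 tested cysteine and taurine genes 3 were lower and none higher. *Baat*, which couples taurine to bile acids, was among these 3 (log2 fold change -0.73, adjusted p = 0.000782) and was named after its values were seen. Lower and higher calls stood side by side in the tryptophan group, where 3 of the 4 tested genes fell and 1 rose.

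Among the lower genes, *Pipox*, the peroxisomal oxidase of pipecolate and sarcosine, was at 291 ± 30.7 CPM (SD, n = 4) in FXRKO and 103 ± 10.6 CPM (SD, n = 4) in DKO livers (log2 fold change -1.50, adjusted p = 1.7e-06). *Aadat*, an aminotransferase of aminoadipate and kynurenine, went from 123 ± 21.1 to 35.3 ± 5.31 CPM (log2 fold change -1.80, adjusted p = 2.11e-06). *Kyat3*, another aminotransferase that acts on kynurenine, went the other way, from 85.3 ± 33.7 to 287 ± 37.9 CPM (log2 fold change 1.75, adjusted p = 0.00164). The per-length ratio of *Kyat3* to *Aadat*, a pair chosen after the values were seen, was between 0.276 and 0.659 in FXRKO livers and between 5.25 and 7.20 in DKO livers.

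*Grhpr*, glyoxylate reductase, fell by 1.13, *Sardh*, sarcosine dehydrogenase, by 1.01, and *Ppm1k*, the phosphatase that activates the branched-chain ketoacid dehydrogenase, by 1.21 on the log2 scale (adjusted p = 8.56e-05, 0.000109 and 0.00051). *Dnajc12*, a co-chaperone of the aromatic amino acid hydroxylases, had the largest log2 fold change of the list, 3.01 (standard error 0.29, adjusted p = 4.57e-05), at 28.7, 18.0, 10.7 and 29.7 CPM in FXRKO livers and 172, 197, 197 and 140.1 CPM in DKO livers. Every DKO liver was several times higher than any FXRKO liver. The transporters *Slc1a2*, which carries glutamate, and *Slc43a1*, which carries large neutral amino acids, rose by 1.68 and 1.08 (adjusted p = 4.37e-05 and 0.00342). The transporters *Slc38a4*, of neutral amino acids, and *Slc16a10*, of aromatic amino acids, fell by 1.09 and 1.02 (adjusted p = 0.000587 and 0.000669), and were named after their values were seen, from 1120.1 ± 220.3 to 527 ± 112 CPM and from 147 ± 34.8 to 72.3 ± 9.98 CPM (SD, n = 4 each).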

How the data were processed

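RNA-seq of 8 livers was used, 4 FXRKO and 4 BCL6LKOFXRKO, grouped by their labels, which number them 1 to 8 and pair none. Reads of 100 bp from single ends had been placed on mm10 by the authors using STAR 2.5.2 (unique hits, no more than 4 mismatches). The deposited values are unnormalized read counts over each gene's exons from HOMER 4.10 (versions per the submitters' notes). A stranded kit was used but the strand counted is not stated, so overlapping and antisense genes are uncertain. RPKM here are CPM over the deposited transcript length.

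In R 4.3.3, edgeR 4.0.16 (filterByExpr, TMM, robust quasi-likelihood fit, Benjamini-Hochberg over 12340 genes) gave the calls at an adjusted p under 0.05, the standard errors and 95% intervals. CPM use TMM-scaled totals. Counting error alone sets a floor of 3 counts, 0.253 to 0.395 CPM. Alternatives were DESeq2 1.42.0, limma 3.58.1 voom with quality weights, RLE factors, total counts, dropping the filter, requiring 10 or more counts per liver, the 50 most counted genes left out, each liver left out, and log2 fold limits of 0.5 and 1. In counts simulated for this comparison (12340 genes, 200 changed 2-fold), edgeR recovered 69% with 3.5% false calls, DESeq2 75% with 9.1% and limma voom 67.5% with 4.3%. Far fewer genes were changed there than were called in these livers, so these rates need not hold for them. No pair of livers of a genotype had counts within sampling noise (chi-square per degree of freedom from 10.7 to 49.3).

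The members and lists were chosen with earlier results of these data known. Values per liver were given for members called past a log2 fold change of 1 and for the first enzyme of each pathway, and other pathway genes were named by the same limit, at most 5 per direction by adjusted p. *Bcl6* was checked as the targeted gene.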

Additional observations from a re-analysis of the deposited data

Results flagged for a closer look

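In 8 of 102 sets of 4 CPM values, 1 liver lay far from the rest, where chance gives about 5 (1 in 20 sets). What is given is the distance to the closest other liver divided by the whole range of that genotype (Dixon's ratio, 95% limit). Among DKO livers, liver 8 was high for *Hpd* (gap share 0.910, at 3091 CPM with the others between 2150.3 and 2235) and for *Grhpr* (0.839, at 156 CPM with the others between 101 and 109.7). DKO liver 6 was high for *Uroc1* (0.906, at 432 CPM with the others between 262 and 278) and for *Slc43a1* (0.995, at 31.3 CPM with the others between 15.5 and 15.6). DKO liver 7 was high for *Ppm1k* (0.953, at 37.4 CPM with the others between 20.9 and 21.7). Among FXRKO livers, liver 1 was low for *Dbt* (0.951, at 75.8 CPM with the others between 105 and 107) and for *Aldh6a1* (0.836, at 335 CPM with the others between 444 and 466), and liver 4 was high for *Slc1a2* (0.834, at 282 CPM with the others between 194 and 209). Apart from *Hpd* and *Uroc1*, these genes were called in every fit that left out a liver.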

How the results depend on the processing

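Without a fold limit, the 15 other fits gave between 17 and 26 lower members, beside 21, at the same adjusted p limit. They called between 9.77% and 23.9% of all tested genes lower. A log2 fold limit of 0.5 left fewer lower members than the 21, *Haao* (-0.497) and *Got2* (-0.491) being among those dropped. Leaving out a liver gave 17 to 23 lower and 1 higher member, and 29 to 34 lower and 5 higher genes of the second list. Of all tested genes, the fits without a liver called between 10.1% and 13.5% lower and between 12.6% and 15% higher. A log2 fold change above 1 left 7 lower members and 7 lower genes of the second list, and limma voom gave 2 higher members, *Cdo1* being added. Of the 22 called members, 18 were called in all 15 other fits, and *Gpt*, *Gstz1*, *Mccc1* and *Mccc2* were lost in 6, 3, 7 and 8 of them (adjusted p up to 0.137). Total counts alone moved the median of all genes by -0.16, gave 26 lower members beside 23.9% of all genes, and changed the share of higher genes among all calls from 54.5% to 32.3%. *Bckdha*, *Aldh7a1* and *Sds* were called lower in 6, 4 and 4 other fits, *Uroc1* in 2, and *Hal* and *Bckdhb* in 1 each, that of *Hal* being without DKO liver 6 (adjusted p = 0.0317). Signs turned for 6 members that were called in no fit: under total counts *Hpd* (-0.15), *Pcbd1* (-0.10), *Amdhd1* (-0.081), *Prodh2* (-0.039), *Aldh4a1* (-0.11) and *Gcsh* (-0.089), with voom *Hpd* (-0.090) and *Aldh4a1* (-0.0029), and with no filter *Hpd* (-0.010). Leaving out 1 liver gave -0.12 to 0.057 for *Hpd*, -0.050 to 0.19 for *Prodh2* and -0.040 to 0.12 for *Aldh4a1*, each lowest without DKO liver 8, and *Hpd* and *Aldh4a1* were also below 0 without FXRKO liver 1. The cause of these changes was not tested. No paired analysis was run because the labels give the genotypes no shared replicate numbers. The mouse numbers in the titles are consecutive for some livers of different genotype, but whether these were littermates or were handled together is not given.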
